A study of Homo sapiens with 3 samples.

Results

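The genes described here are 34 genes of the integrated stress response that is run by the transcription factor ATF4, taken from a table of 58884 gene rows by matching each row's Ensembl identifier to its GENCODE gene name. All 34 were found, each in a single row. They were measured in 3 RNA sequencing libraries of LNCaP, an androgen-sensitive line of human prostate cancer cells. All cells were first cultured for 24 h in medium with serum and then kept for 72 h in serum-free medium to which 50% conditioned medium (CM) and 2% fetal bovine serum had been added. The conditioned medium was PPAT-CM (tumor by its label), PVAT-CM (normal by its label) or control-CM. PPAT is periprostatic adipose tissue in the series title, PVAT is not expanded in the labels, and the labels give no donor or number of donors behind a medium. There was 1 library for each medium. The differences below therefore have no replicate check, and no p-value was computed.

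The integrated stress response starts when kinases such as PERK, which senses unfolded protein in the endoplasmic reticulum, or GCN2, which senses uncharged tRNA, phosphorylate the translation factor eIF2. General protein synthesis slows, while the mRNA of ATF4 is translated more, so that ATF4 protein can rise with little change in its mRNA. ATF4 pairs with C/EBP proteins and raises genes for amino acid synthesis, transport and tRNA charging, among them the serine and one-carbon enzymes, and with prolonged stress the death-linked factor CHOP, encoded by DDIT3. One of its targets, PPP1R15A, brings a phosphatase to eIF2 and closes the loop.

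ATF4 and C/EBP proteins bind a composite DNA element whose core, TGATGNAA, was searched on both strands in RefSeq promoter windows on GRCh38.p14, each from 250 bases before to 50 bases after an annotated start. Windows were given for 27 of the 34 genes. The core was present for 6 of these 27, and in 3.62% of all 35116 windows, or for 4.46% of all 27305 symbols with a window. A symbol can have several windows, and the 27 genes had 41. The stretches of 30 bases that hold the core are shown because ATF4 acts on its targets through this element. They are written on the strand of the gene with the core in capitals, as its reverse complement where it lies on the other strand. The core began 68 bases before the RefSeq start of the window for ASNS, 209 for CHAC1, 42 for CEBPG, 191 for ATF3, 16 for JDP2 and 54 for FGF21. These starts can differ from the GENCODE gene bounds given below, which span all transcripts of a gene.
ASNS, chr7:97872458-97872487, minus strand: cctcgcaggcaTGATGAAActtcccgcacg
CHAC1, chr15:40953251-40953280, plus strand: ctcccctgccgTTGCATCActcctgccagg
CEBPG, chr19:33374060-33374089, plus strand: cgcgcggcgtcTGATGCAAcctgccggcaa
ATF3, chr1:212565205-212565234, plus strand: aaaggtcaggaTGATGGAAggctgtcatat
JDP2, chr14:75427995-75428024, plus strand: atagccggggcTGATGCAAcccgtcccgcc
FGF21, chr19:48755459-48755488, plus strand: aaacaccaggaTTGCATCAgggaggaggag
The cAMP response element TGACGTCA, an 8-base motif that shares no full match with the core, was present for 1 of the 27 genes, PPP1R15A, and for 2.25% of all symbols, in 1.85% of all windows. It began 58 bases before the RefSeq start of the window.
PPP1R15A, chr19:48872352-48872381, plus strand: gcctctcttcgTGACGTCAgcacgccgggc
A match describes the letters in a window and not a bound site. Of the 8 genes that differed most between the adipose media, described below, 7 had a window, and none of their windows held the core, which says nothing of other stretches of those genes.

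Library totals were 16965584 counts in PPAT-CM, 14174241 in PVAT-CM and 16534649 in control-CM, and levels are given as scaled CPM, counts over the library size after TMM scaling, which takes most genes to be unchanged. Gene positions are on GRCh38, from GENCODE release 29. Mitochondrially encoded genes held 15.5% of counts in PPAT-CM, 21.1% in PVAT-CM and 30.8% in control-CM. Of the 34 genes 32 had a mean count of at least 50 over the libraries, as had 12256 genes in all, and only these enter the tallies. The exceptions were FGF21, a stress-induced hormone, with 0 counts in PPAT-CM, 4 in PVAT-CM and 2 in control-CM, and ALDH1L2, a mitochondrial one-carbon enzyme, with 8 counts in PPAT-CM, 8 in PVAT-CM and 11 in control-CM. A count of 0 in PPAT-CM allowed a level of up to 0.163 scaled CPM, so no fold is given for FGF21. A gene is called higher or lower from a ratio of 1.5-fold, and ranges in parentheses after a fold are 95% counting intervals, which cover counting error only and no spread between cultures. In bulk RNA, fewer cells with a transcript and less of it per cell cannot be told apart. All 11 prostate markers were kept, among them KLK3 with 4577 counts in PPAT-CM, 9982 in PVAT-CM and 10286 in control-CM. Of 8 adipocyte markers none was kept, ADIPOQ, FABP4, LEP and LPL were at 0 in all libraries, and the list summed to 137 counts in PPAT-CM, 53 in PVAT-CM and 64 in control-CM. Leukocyte markers summed to 35 counts in PPAT-CM, 21 in PVAT-CM and 19 in control-CM, and endothelial ones to 36 counts in PPAT-CM, 16 in PVAT-CM and 27 in control-CM. Fibroblast markers summed to 534 counts in PPAT-CM, 371 in PVAT-CM and 792 in control-CM, with COL1A1 the single one of 7 kept. Of the prostate markers 5 were at least 1.5-fold lower in PPAT-CM than PVAT-CM, or 45.5%, and none higher, where 6.07% and 8.56% of all genes were. KLK3 was 2.81-fold lower (2.72 to 2.91). The part of the mitochondrial share and of the prostate markers in the results below was not tested.

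Between the adipose media most of the stress response genes were lower in PPAT-CM. Of the 32 genes 8 were at least 1.5-fold lower in PPAT-CM than PVAT-CM, or 25.0%, where 6.07% of all 12256 genes were called lower. None was at least 1.5-fold higher, where 8.56% of all genes were. Their median log2 ratio was -0.32, beside 0.02 over all genes kept and 0.04 over the 10970 protein-coding ones. In all 27 of the 32 had a ratio below 1, where 47.7% of all genes did. With total counts 25 did and with upper quartile scaling 29, where 35.4% and 54.0% of all genes did. The counting interval lay below 1 for 25 and above 1 for 3, PYCR1, PSPH and VLDLR, where it lay below 1 for 25.6% and above 1 for 30.7% of all genes. An interval lies away from 1 more readily in genes with many counts, and the 32 genes were not matched to all genes by counts. With total counts in place of TMM, 5 were called lower and 1 higher, or 15.6% and 3.12%, where 4.18% and 12.0% of all genes were, and the median over all genes moved to 0.13.

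**Figure D1:**
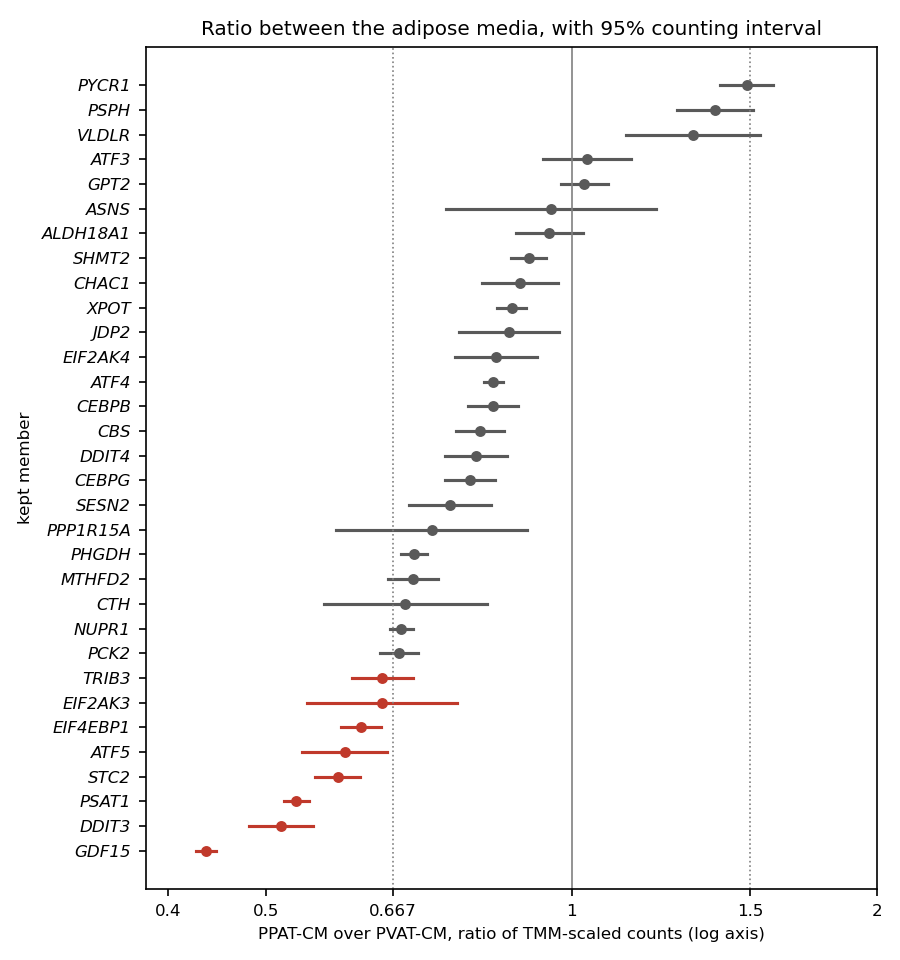
Ratio of TMM-scaled counts in PPAT-CM over PVAT-CM for the 32 kept genes on a log axis, with lines for the 95% counting interval, dotted lines at 1.5-fold in each direction and the 8 genes past 1.5-fold in red. GDF15 lies lowest at 0.436, and 27 of the 32 points lie left of 1.

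GDF15, a secreted stress cytokine also known as prostate differentiation factor (ENSG00000130513, chromosome 19, 18374731 to 18389176), was the most different. It had 11060 counts in PPAT-CM, 19663 in PVAT-CM and 11665 in control-CM, or 601 scaled CPM in PPAT-CM, 1379 in PVAT-CM and 769 in control-CM. It was 2.29-fold lower (2.24 to 2.35) in PPAT-CM than PVAT-CM, and ranked 92 from the lowest ratio among the 12256 genes. The PVAT-CM library stood above both others. STC2, a secreted glycoprotein induced by endoplasmic reticulum stress (ENSG00000113739, chromosome 5, 173314713 to 173329503), had 2597 counts in PPAT-CM, 3426 in PVAT-CM and 2365 in control-CM, or 141 scaled CPM in PPAT-CM, 240.3 in PVAT-CM and 156 in control-CM. It was 1.7-fold lower (1.62 to 1.79) in PPAT-CM than PVAT-CM, and again highest in PVAT-CM. VLDLR, a lipoprotein receptor, went the other way, with 25.2 scaled CPM in PPAT-CM, 19.1 in PVAT-CM and 18.5 in control-CM. Its ratio of PPAT-CM over PVAT-CM was 1.32 (1.13 to 1.54), under the threshold.

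Among the transcription factors ATF4 itself (ENSG00000128272, chromosome 22, 39519695 to 39522685) had 16968 counts in PPAT-CM, 15707 in PVAT-CM and 12841 in control-CM, or 923 scaled CPM in PPAT-CM, 1102 in PVAT-CM and 847 in control-CM. It was 1.19-fold lower (1.17 to 1.22) in PPAT-CM than PVAT-CM, so its own mRNA lay nearer to 1 than the 8 genes past the threshold. DDIT3, which encodes the death-linked factor CHOP (ENSG00000175197, chromosome 12, 57516588 to 57521737), had 1201 counts in PPAT-CM, 1801 in PVAT-CM and 1521 in control-CM, or 65.3 scaled CPM in PPAT-CM, 126 in PVAT-CM and 100.3 in control-CM. It was 1.93-fold lower (1.8 to 2.08) in PPAT-CM than PVAT-CM and lowest in PPAT-CM. ATF5, a relative of ATF4 under the same translational control (ENSG00000169136, chromosome 19, 49928702 to 49933935), had 734 counts in PPAT-CM, 953 in PVAT-CM and 739 in control-CM, or 39.9 scaled CPM in PPAT-CM, 66.8 in PVAT-CM and 48.7 in control-CM, and was 1.67-fold lower (1.52 to 1.85) in PPAT-CM than PVAT-CM. NUPR1, a small stress-induced chromatin protein, lay just under the threshold, with 551 scaled CPM in PPAT-CM, 811 in PVAT-CM and 669 in control-CM, and was 1.47-fold lower (1.43 to 1.51) in PPAT-CM than PVAT-CM.

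The C/EBP partners and the repressors of the same protein class stayed under the threshold between the adipose media. CEBPG, the C/EBP protein that pairs with ATF4, had 134 scaled CPM in PPAT-CM, 169 in PVAT-CM and 129.8 in control-CM. CEBPB, another partner, had 2554 counts in PPAT-CM, 2368 in PVAT-CM and 1458 in control-CM, or 139 scaled CPM in PPAT-CM, 166 in PVAT-CM and 96.1 in control-CM. JDP2, a repressor of the AP-1 class, had 34.8 scaled CPM in PPAT-CM, 40.1 in PVAT-CM and 38.2 in control-CM. All 3 were lower in PPAT-CM than PVAT-CM by less than 1.5-fold, and their intervals lay below 1. ATF3, a stress-induced factor that acts mostly as a repressor (ENSG00000162772, chromosome 1, 212565334 to 212620777), had 916 counts in PPAT-CM, 686 in PVAT-CM and 375 in control-CM, or 49.8 scaled CPM in PPAT-CM, 48.1 in PVAT-CM and 24.7 in control-CM. Its ratio of PPAT-CM over PVAT-CM was 1.04 (0.937 to 1.14), an interval that includes 1, and both adipose libraries stood above control-CM.

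**Figure D2:**
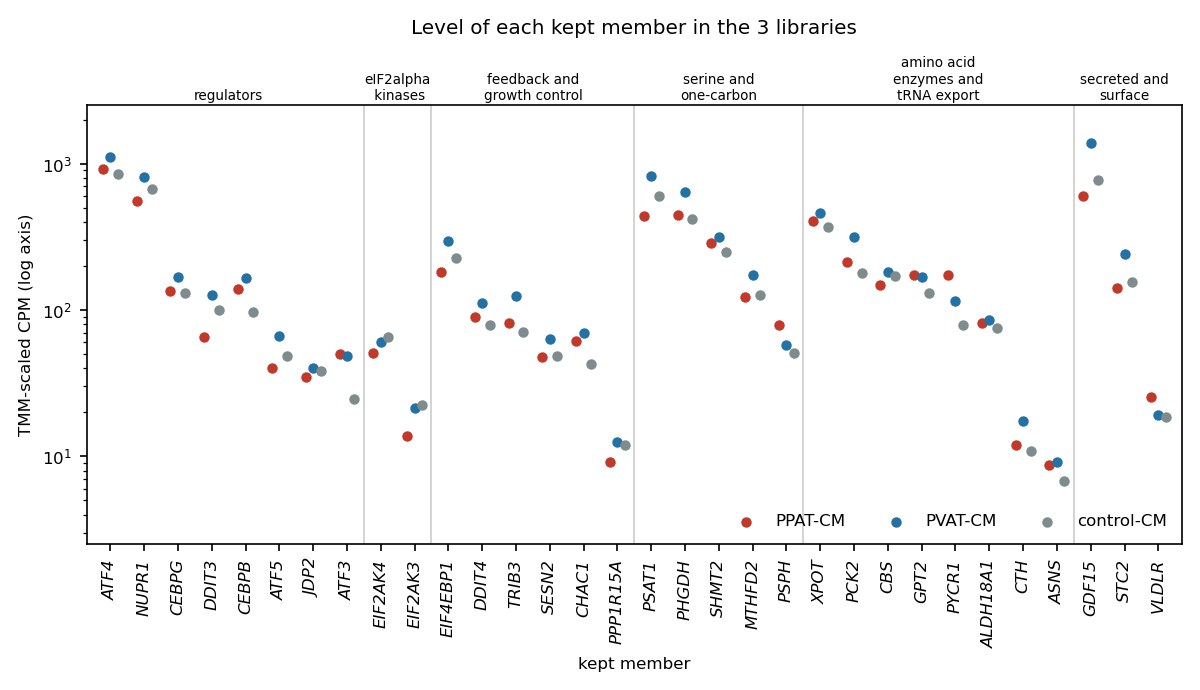
Level of the 32 kept genes in scaled CPM on a log axis in PPAT-CM (red), PVAT-CM (blue) and control-CM (grey), grouped by role, with 1 point for each library and no error bar since there is no replicate. PVAT-CM holds the highest point for 25 of the 32 genes, PPAT-CM for 5 and control-CM for 2.

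Of the feedback and growth control genes EIF4EBP1, an inhibitor of cap-dependent translation (ENSG00000187840, chromosome 8, 38030341 to 38060365), had 3347 counts in PPAT-CM, 4187 in PVAT-CM and 3434 in control-CM, or 182 scaled CPM in PPAT-CM, 294 in PVAT-CM and 226 in control-CM. It was 1.61-fold lower (1.54 to 1.69) in PPAT-CM than PVAT-CM. TRIB3, a pseudokinase that restrains ATF4 and AKT (ENSG00000101255, chromosome 20, 362835 to 397559), had 1500 counts in PPAT-CM, 1787 in PVAT-CM and 1080 in control-CM, or 81.6 scaled CPM in PPAT-CM, 125 in PVAT-CM and 71.2 in control-CM, and was 1.54-fold lower (1.43 to 1.65) in PPAT-CM than PVAT-CM. With total counts in place of TMM both fell short of 1.5-fold, at log2 ratios of -0.58 for EIF4EBP1 and -0.51 for TRIB3. SESN2 and DDIT4, both restraints on mTORC1, were 1.32-fold lower (1.2 to 1.45) and 1.24-fold lower (1.16 to 1.33) in PPAT-CM than PVAT-CM. SESN2 had 47.9 scaled CPM in PPAT-CM, 63.1 in PVAT-CM and 48.3 in control-CM, and DDIT4 had 89.6 scaled CPM in PPAT-CM, 111 in PVAT-CM and 78.4 in control-CM. PPP1R15A, which restores eIF2 by recruiting its phosphatase, was the least abundant of these genes per kilobase of exon in each library. It had 168 counts in PPAT-CM, 179 in PVAT-CM and 180 in control-CM, and was 1.37-fold lower (1.11 to 1.71) in PPAT-CM than PVAT-CM. CHAC1, an enzyme that breaks down glutathione, had 1132 counts in PPAT-CM, 986 in PVAT-CM and 652 in control-CM, or 61.6 scaled CPM in PPAT-CM, 69.2 in PVAT-CM and 43.0 in control-CM, and was 1.12-fold lower (1.03 to 1.22) in PPAT-CM than PVAT-CM. All 6 genes of this group were thus lower in PPAT-CM than PVAT-CM under each scaling run, 2 of them past 1.5-fold with TMM.

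The kinases that start the response were lowest in PPAT-CM and highest in control-CM, or in PVAT-CM with total counts. EIF2AK3, which encodes PERK (ENSG00000172071, chromosome 2, 88556741 to 88627576), had 254 counts in PPAT-CM, 303 in PVAT-CM and 338 in control-CM, or 13.8 scaled CPM in PPAT-CM, 21.3 in PVAT-CM and 22.3 in control-CM. It was 1.54-fold lower (1.3 to 1.82) in PPAT-CM than PVAT-CM, a call that total counts end, at a log2 ratio of -0.51. EIF2AK4, which encodes GCN2, had 50.9 scaled CPM in PPAT-CM, 60.5 in PVAT-CM and 65.2 in control-CM and was 1.19-fold lower (1.08 to 1.3) in PPAT-CM than PVAT-CM.

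The enzymes of serine synthesis differed in direction. PSAT1, the transaminase of the pathway (ENSG00000135069, chromosome 9, 78297143 to 78330093), had 8115 counts in PPAT-CM, 11755 in PVAT-CM and 9134 in control-CM, or 441 scaled CPM in PPAT-CM, 825 in PVAT-CM and 602 in control-CM. It was 1.87-fold lower (1.82 to 1.92) in PPAT-CM than PVAT-CM, and PPAT-CM was the lowest of the 3 libraries. PHGDH, the first enzyme of the pathway, had 8244 counts in PPAT-CM, 9138 in PVAT-CM and 6340 in control-CM, or 448 scaled CPM in PPAT-CM, 641 in PVAT-CM and 418 in control-CM, and was 1.43-fold lower (1.39 to 1.47). PSPH, the phosphatase of the last step (ENSG00000146733, chromosome 7, 56011051 to 56051604), had 1459 counts in PPAT-CM, 817 in PVAT-CM and 772 in control-CM, or 79.3 scaled CPM in PPAT-CM, 57.3 in PVAT-CM and 50.9 in control-CM. It was 1.38-fold higher (1.27 to 1.51) in PPAT-CM than PVAT-CM, in the opposite direction to PSAT1 and PHGDH, though under the threshold. A related pseudogene, PSPHP1, had 332 counts in PPAT-CM, 244 in PVAT-CM and 206 in control-CM, and the split of reads between the pair is uncertain. The mitochondrial one-carbon enzymes followed PHGDH in direction. MTHFD2, a dehydrogenase and cyclohydrolase, had 122 scaled CPM in PPAT-CM, 175 in PVAT-CM and 126 in control-CM and was 1.43-fold lower (1.35 to 1.52) in PPAT-CM than PVAT-CM. SHMT2, which splits serine, had 287 scaled CPM in PPAT-CM, 316 in PVAT-CM and 249.8 in control-CM and was 1.1-fold lower (1.06 to 1.15).

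Among the other amino acid enzymes PYCR1, the last enzyme of proline synthesis in mitochondria (ENSG00000183010, chromosome 17, 81932384 to 81942412), had 3171 counts in PPAT-CM, 1651 in PVAT-CM and 1195 in control-CM, or 172 scaled CPM in PPAT-CM, 116 in PVAT-CM and 78.8 in control-CM. It was 1.49-fold higher (1.4 to 1.58) in PPAT-CM than PVAT-CM, at the edge of the threshold, and passed it with total counts, at a log2 ratio of 0.68. ALDH18A1, which acts one step earlier in proline synthesis, had 81.5 scaled CPM in PPAT-CM, 85.8 in PVAT-CM and 75.6 in control-CM, and the interval of its ratio, 0.95 (0.881 to 1.03), included 1. PCK2, the mitochondrial PEP carboxykinase, had 3923 counts in PPAT-CM, 4500 in PVAT-CM and 2702 in control-CM, or 213 scaled CPM in PPAT-CM, 316 in PVAT-CM and 178 in control-CM, and was 1.48-fold lower (1.42 to 1.54) in PPAT-CM than PVAT-CM. CTH and CBS, the enzymes of transsulfuration that make cysteine, were 1.46-fold lower (1.21 to 1.76) and 1.23-fold lower (1.17 to 1.3). CTH had 221 counts in PPAT-CM, 250 in PVAT-CM and 166 in control-CM, or 12.0 scaled CPM in PPAT-CM, 17.5 in PVAT-CM and 10.9 in control-CM, and CBS had 147 scaled CPM in PPAT-CM, 181 in PVAT-CM and 169 in control-CM. The near-identical copy CBSL held 6 counts in PPAT-CM, 9 in PVAT-CM and 5 in control-CM, and the split of reads between CBS and the copy is uncertain. GPT2, a mitochondrial alanine transaminase, had 174 scaled CPM in PPAT-CM, 169 in PVAT-CM and 132 in control-CM, with a ratio of 1.03 (0.976 to 1.09). XPOT, the export receptor of tRNA, had 404 scaled CPM in PPAT-CM, 463 in PVAT-CM and 370.3 in control-CM and was 1.15-fold lower (1.11 to 1.18) in PPAT-CM than PVAT-CM.

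ASNS, asparagine synthetase and a classic ATF4 target (ENSG00000070669, chromosome 7, 97852118 to 97872542), had only 160 counts in PPAT-CM, 130 in PVAT-CM and 103 in control-CM. Its ratio of PPAT-CM over PVAT-CM was 0.954 (0.752 to 1.21). A processed transcript annotated on the same strand covers 44.6% of its exon bases and had 61 counts in PPAT-CM, 39 in PVAT-CM and 40 in control-CM, and its pseudogene ASNSP1 had 214 counts in PPAT-CM, 203 in PVAT-CM and 217 in control-CM. The treatment of shared reads in the counting is not stated in the labels, so the level of ASNS is uncertain. Exons of 11 of the 32 genes overlap another annotated gene and 6 have a copy that holds counts, 16 in all. DDIT3 shares 27.2% of its exon bases with MARS1 on the other strand, and ATF5 shares 21.2% with NUP62. Without those 16 genes, 4 of the other 16 were called lower in PPAT-CM than PVAT-CM, where 6.07% of all genes were, with a median of -0.49. The genes left out included PYCR1, PSPH and VLDLR, the 3 whose interval lay above 1, so the lower median partly reflects their removal. They also included DDIT3, ATF5, EIF4EBP1 and EIF2AK3 of the genes called lower.

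Per kilobase of merged exons the order of the most abundant genes differed between the media. In PPAT-CM ATF4 stood first, at 367 scaled CPM per kilobase, ahead of GDF15 at 288. In PVAT-CM GDF15 stood first, at 661, ahead of ATF4 at 438. In control-CM GDF15 was at 369 and ATF4 at 337. PSAT1 and then EIF4EBP1 came next in each library. At the other end ASNS was the least abundant of the 32 genes in each library, at 1.95 in PPAT-CM, 2.05 in PVAT-CM and 1.52 in control-CM. The second lowest was EIF2AK3 in PPAT-CM and VLDLR in the other two.

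Against control-CM the adipose media gave different pictures. Both comparisons share the control library, so an odd value there would move both. In PPAT-CM 3 of the 32 genes passed 1.5-fold above control-CM and 2 passed it below control-CM, or 9.38% and 6.25%, where 12.0% and 8.71% of all genes were called. The median log2 ratio was 0.10, beside 0.03 over all genes. With total counts the tally became 8 higher and 0 lower, or 25.0% and 0%, where 24.1% and 4.39% of all genes were called, and the median over all genes moved to 0.27. The share called higher was thus near that of all genes under either scaling. PYCR1 was 2.19-fold higher (2.05 to 2.34), ATF3 2.01-fold higher (1.78 to 2.28) and PSPH 1.56-fold higher (1.43 to 1.7). PSPH fell short of the threshold with upper quartile scaling, at a log2 ratio of 0.57. EIF2AK3 was 1.61-fold lower (1.37 to 1.91) and DDIT3 1.54-fold lower (1.42 to 1.66). Neither was called with total counts, at log2 ratios of -0.45 for EIF2AK3 and -0.38 for DDIT3.

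In PVAT-CM 9 of the 32 genes were at least 1.5-fold higher than in control-CM and none was called lower, or 28.1% and 0%, where 3.15% and 3.49% of all genes were called. Their median log2 ratio was 0.38, beside 0.02 over all genes, and 30 of the 32 had a ratio above 1, where 53.1% of all genes did. With total counts 14 were called higher, or 43.8%, where 6.67% of all genes were, and the median over all genes moved to 0.15. ATF3 was 1.95-fold higher (1.71 to 2.21), at rank 70 from the highest ratio among the 12256 genes, followed by GDF15, 1.79-fold higher (1.75 to 1.83), PCK2, 1.77-fold higher (1.69 to 1.86), and TRIB3, 1.76-fold higher (1.63 to 1.9). CEBPB was 1.73-fold higher (1.62 to 1.85), CHAC1 1.61-fold higher (1.46 to 1.78) and CTH 1.6-fold higher (1.31 to 1.96). STC2 was 1.54-fold higher (1.46 to 1.62) and PHGDH 1.53-fold higher (1.48 to 1.58). Both kinase genes were near 1, EIF2AK3 at 0.954 (0.814 to 1.12) and EIF2AK4 at 0.927 (0.845 to 1.02), as were PPP1R15A at 1.06 (0.855 to 1.31) and JDP2 at 1.05 (0.933 to 1.18). At 2-fold 1 of the 32 genes, GDF15, was called lower in PPAT-CM than PVAT-CM, where 1.47% of all genes were. PYCR1 and ATF3 were called higher in PPAT-CM than in control-CM, where 3.93% were, and none of the 32 in PVAT-CM against control-CM, where 0.465% were called higher.

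**Figure D3:**
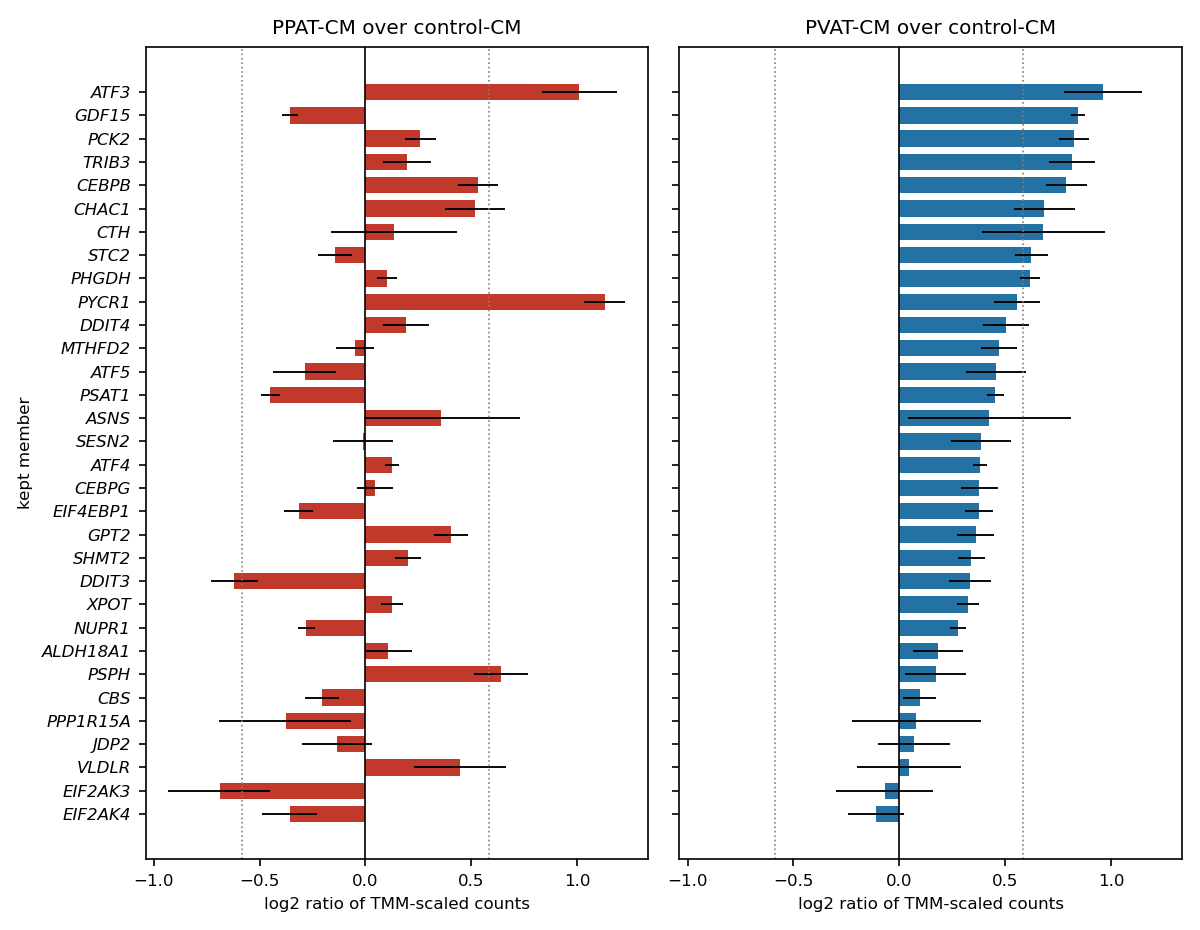
Log2 ratio of TMM-scaled counts over control-CM in PPAT-CM (left, red) and PVAT-CM (right, blue) for the 32 kept genes, ordered by the ratio in PVAT-CM, with black lines for 95% counting intervals and dotted lines at 1.5-fold. In PVAT-CM 30 bars point right, and in PPAT-CM 18 point right and 14 left.

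The libraries could also be ordered by each gene's level. PVAT-CM held the highest level for 25 genes, PPAT-CM for 5, which were ATF3, PSPH, VLDLR, PYCR1 and GPT2, and control-CM for 2, which were EIF2AK3 and EIF2AK4. These were 15.6% of the 32 genes highest in PPAT-CM, 78.1% in PVAT-CM and 6.25% in control-CM, where 41.5% of all genes kept were highest in PPAT-CM, 26.2% in PVAT-CM and 32.3% in control-CM. The lowest level was in PPAT-CM for 14 genes and in control-CM for 18, or 43.8% and 56.2%, where it was 36.6% and 38.0% of all genes. For 13 genes, ATF4 among them, the order was PVAT-CM, PPAT-CM, control-CM, and for 12, GDF15, DDIT3 and PSAT1 among them, it was PVAT-CM, control-CM, PPAT-CM. Neighbours in an order are not told apart where the interval of their ratio includes 1. Between PPAT-CM and PVAT-CM this held for ATF3, GPT2, ASNS and ALDH18A1. Between PVAT-CM and control-CM it held for JDP2, PPP1R15A, VLDLR, EIF2AK3 and EIF2AK4. For all of these but VLDLR the highest library is thus unsettled. Between PPAT-CM and control-CM the interval included 1 for ASNS, MTHFD2, SESN2, CEBPG, CTH, ALDH18A1 and JDP2. For these genes and VLDLR the lowest library is unsettled, so the tallies of orders and of lowest levels are uncertain to that extent. The order also depends on the scaling: with total counts 23 of the 32 genes in PPAT-CM and all 32 in PVAT-CM had a ratio to control-CM above 1, where 73.7% and 71.2% of all genes did.

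**Figure D4:**
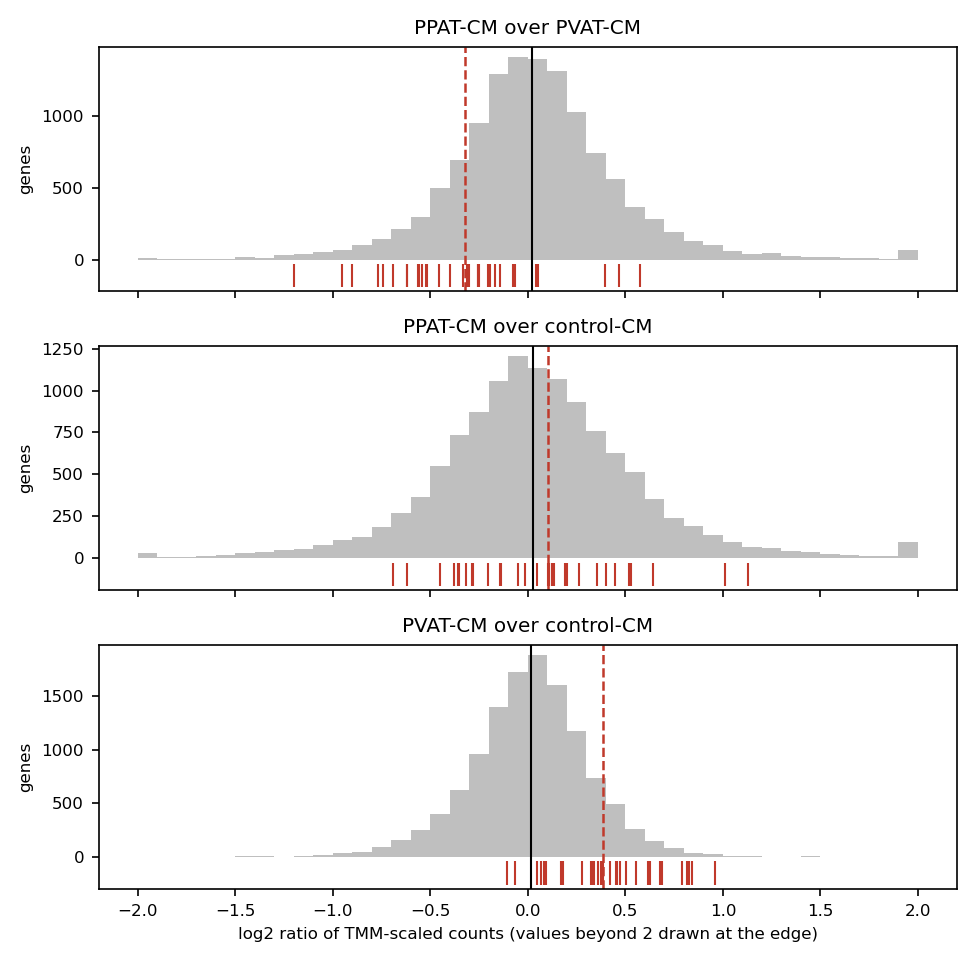
Distribution of log2 ratios over all 12256 genes kept (grey bars, number of genes) in the 3 comparisons, with 1 red tick below the axis for each of the 32 genes, a red dashed line at their median and a black line at the median of all genes. The red dashed line lies at -0.32 for PPAT-CM over PVAT-CM, at 0.10 for PPAT-CM over control-CM and at 0.38 for PVAT-CM over control-CM.

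The surrounding pathway was read from 10 lists, whose tallies stand beside the 8.56% of all genes called higher and the 6.07% called lower in PPAT-CM against PVAT-CM, and the median of 0.02 over all genes. Among 21 parts of the eIF2 machinery outside the 34 genes, all of them kept, 1 was higher in PPAT-CM than PVAT-CM, or 4.76%, and none lower, with a median of 0.06. It was EIF2S2, the beta subunit of eIF2, with 3688 counts in PPAT-CM, 1796 in PVAT-CM and 1384 in control-CM, 1.59-fold higher (1.5 to 1.69). The ATF4 partners and relatives, 23 of 25 kept, had 4 higher, or 17.4%, none lower and a median of 0.12. CEBPD, an inflammatory C/EBP protein, was 2.07-fold higher (1.92 to 2.24), MAF 1.91-fold higher (1.52 to 2.41), FOS 1.7-fold higher (1.6 to 1.82) and MAFF 1.54-fold higher (1.09 to 2.18). In PVAT-CM against control-CM no gene of these 2 lists was called, where 3.15% of all genes were called higher and 3.49% lower. Among the lists described below, 6 of 24 kept genes of the ATF6 and XBP1 arms were called higher there, or 25.0%. So were 4 of 17 amino acid transporters, or 23.5%, and 4 of 9 genes linked to CHOP, or 44.4%, with none lower in these lists. The share called higher in the other lists ran from 0% for mitochondrial aminoacyl-tRNA synthetases to 10.0% for p53 targets.

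Lists of supply and folding genes were lower in PPAT-CM than PVAT-CM by their medians, though few of their genes were called. Amino acid transporters, 17 of 21 kept, had a median of -0.22, with 2 higher and 2 lower, or 11.8% each. SLC1A5, a glutamine carrier, had 1093 counts in PPAT-CM, 1749 in PVAT-CM and 987 in control-CM and was 2.06-fold lower (1.91 to 2.23), and SLC7A1, a carrier of cationic amino acids, was 1.76-fold lower (1.65 to 1.87). SLC7A5, the leucine carrier, went the other way, with 554 counts in PPAT-CM, 190 in PVAT-CM and 129 in control-CM, 2.26-fold higher (1.91 to 2.68), and SLC36A4 was 1.71-fold higher (1.36 to 2.17). Cytosolic aminoacyl-tRNA synthetases, all 20 kept, had a median of -0.16 and 1 called gene, or 5.0%, AARS1, 1.58-fold lower (1.53 to 1.64). Mitochondrial ones, 16 of 17 kept, had a median of -0.02, whose sign turns with total counts, and no called gene. The ATF6 and XBP1 arms of the unfolded protein response, 24 of 25 kept, had a median of -0.27, with 1 higher and 2 lower, or 4.17% and 8.33%. XBP1 was 2.29-fold higher (2.2 to 2.39), while SEL1L and DNAJB11, which serve disposal and folding in the endoplasmic reticulum, were 1.76-fold lower (1.63 to 1.89) and 1.57-fold lower (1.41 to 1.73).

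Other enzymes of one-carbon, serine, proline and transsulfuration metabolism, 29 of 34 kept, had a median of -0.12, with 1 higher and 6 lower, or 3.45% and 20.7%. GLUL, glutamine synthetase, had 5418 counts in PPAT-CM, 1671 in PVAT-CM and 1609 in control-CM and was 2.51-fold higher (2.38 to 2.66) in PPAT-CM than PVAT-CM. GLUD1 was 1.63-fold lower (1.52 to 1.74), GPT 1.61-fold lower (1.33 to 1.95) and DMGDH 1.58-fold lower (1.29 to 1.93). Of 11 genes linked to CHOP 9 were kept, with a median of -0.13, 1 higher and 1 lower, or 11.1% each, and these were the pro-death genes PMAIP1, 2.87-fold higher (2.49 to 3.33), and BBC3, 2.14-fold lower (1.86 to 2.46). Other genes of ATF4 target lists, 29 of 32 kept, had a median of -0.15, with 4 higher and 2 lower, or 13.8% and 6.9%. TXNIP, a restraint on glucose uptake, had 3472 counts in PPAT-CM, 59 in PVAT-CM and 92 in control-CM. It was 45.6-fold higher (35.3 to 60.1) in PPAT-CM than PVAT-CM. The other higher ones were SESN3, 2.37-fold higher (2.28 to 2.46), SQSTM1, 2.32-fold higher (2.21 to 2.43), and CHAC2, 2.3-fold higher (1.47 to 3.7).

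GDF15, ATF3, SESN2 and DDIT4 are also known as targets of p53. Of 20 p53 targets, all kept, 6 were lower in PPAT-CM than PVAT-CM, where 6.07% of all genes were, and none higher, with a median of -0.31, close to the -0.32 of the stress response genes. The list leaves out PMAIP1, also known as a p53 target. It was counted above with the genes linked to CHOP and was 2.87-fold higher (2.49 to 3.33) in PPAT-CM than PVAT-CM. GADD45A had 468 counts in PPAT-CM, 1003 in PVAT-CM and 850 in control-CM and was 2.76-fold lower (2.47 to 3.09), BBC3, counted above, was the second, FDXR was 1.98-fold lower (1.68 to 2.32) and DDB2 1.78-fold lower (1.48 to 2.13). Against control-CM the p53 targets had a median of -0.14 in PPAT-CM, a sign that total counts turn, with 4 lower, or 20.0% beside 8.71% of all genes, and 0.15 in PVAT-CM, with 2 higher, or 10.0% beside 3.15%. The part of p53 in the values of the shared genes was not tested.

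**Figure D5:**
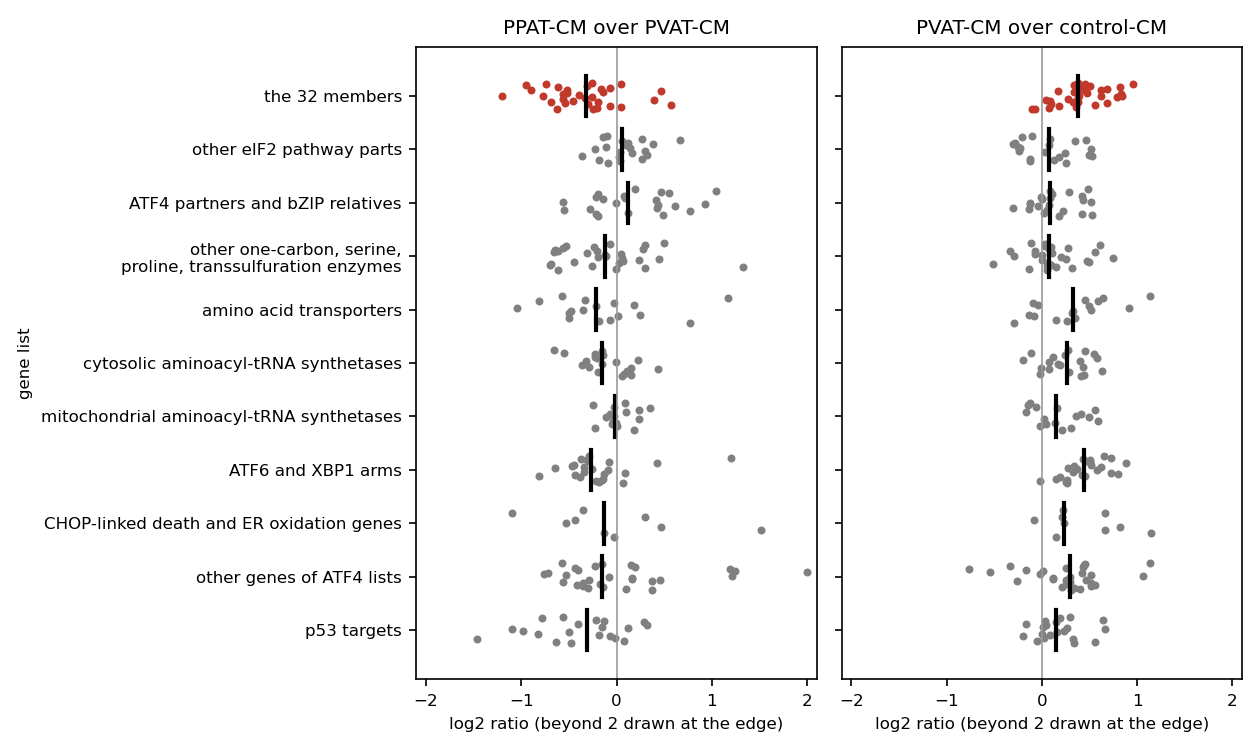
Log2 ratio of each kept gene (points, at most 2 in either direction) by list, for PPAT-CM over PVAT-CM (left) and PVAT-CM over control-CM (right), with a black bar at the list's median and the 32 stress response genes in red. Left, the medians run between -0.32 for the 32 genes and 0.12 for the ATF4 partners, and right, the ATF6 and XBP1 arms lie highest at 0.44, above the 0.38 of the 32 genes.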

How the data were processed

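Per the labels' protocols, total RNA from RNeasy columns went into KAPA mRNA HyperPrep libraries. The deposited table holds raw counts per gene. Per the submitters' processing notes the authors used FastQC, Trimmomatic, HISAT2, featureCounts and edgeR with GRCh38, and their versions, and how featureCounts handled strand and multi-mapping, are not given in the sources used. Names, coordinates and exon lengths came from GENCODE release 29.

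Counts were scaled with TMM factors (edgeR 4.0.16, R 4.3.3) of 1.08 in PPAT-CM, 1.01 in PVAT-CM and 0.917 in control-CM. Genes with a mean count of at least 50 were kept. Log2 ratios used a pseudocount of 0.5, and folds are ratios of scaled counts with exact conditional binomial (Clopper-Pearson) 95% intervals (scipy 1.17.1). The labels name no molecular identifiers, so reads may be copies of 1 molecule, and intervals and the floor of 3 counts cover counting error only. A single library per medium leaves no spread to fit, so edgeR's quasi-likelihood test was not run. The genes, their related lists and the comparisons were chosen with earlier results of these data known. Genes called in any comparison are given with counts. Of each related list, the called genes with the largest ratio between the adipose media in either direction, up to 4, are named. The calling was tested on simulated counts with counting noise alone, which checks the arithmetic and not the spread between cultures. Alternatives were DESeq2 1.42.0 size factors, total counts, upper quartile factors, TMM without mitochondrial genes, other count minimums, a pseudocount of 5, a 2-fold threshold and a call that also needs an interval away from 1. Protein-coding genes only, and leaving out genes with overlaps or copies, were added after seeing the data.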

Additional observations from a re-analysis of the deposited data

Results flagged for a closer look

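In 8 of the 32 genes the ratio to control-CM had opposite signs in the 2 adipose media, with both counting intervals away from 1. All 8, or 25.0%, lay below control-CM in PPAT-CM and above it in PVAT-CM, where 2.61% of all 12256 genes did and 4.39% had opposite signs in either direction. Small shifts pass this rule only in genes with many counts, and the 32 genes were not matched to all genes by counts, so these shares depend partly on depth. With 1 library per medium the difference was not tested, and both ratios share the control library. GDF15 had a log2 ratio of -0.35 in PPAT-CM and 0.84 in PVAT-CM, and of -1.20 for PPAT-CM over PVAT-CM. DDIT3 had a log2 ratio of -0.62 in PPAT-CM and 0.33 in PVAT-CM, and of -0.95 for PPAT-CM over PVAT-CM. PSAT1 had a log2 ratio of -0.45 in PPAT-CM and 0.45 in PVAT-CM, and of -0.90 for PPAT-CM over PVAT-CM. STC2 had a log2 ratio of -0.14 in PPAT-CM and 0.62 in PVAT-CM, and of -0.77 for PPAT-CM over PVAT-CM. ATF5 had a log2 ratio of -0.29 in PPAT-CM and 0.46 in PVAT-CM, and of -0.74 for PPAT-CM over PVAT-CM. EIF4EBP1 had a log2 ratio of -0.31 in PPAT-CM and 0.38 in PVAT-CM, and of -0.69 for PPAT-CM over PVAT-CM. NUPR1 had a log2 ratio of -0.28 in PPAT-CM and 0.28 in PVAT-CM, and of -0.56 for PPAT-CM over PVAT-CM. CBS had a log2 ratio of -0.20 in PPAT-CM and 0.10 in PVAT-CM, and of -0.30 for PPAT-CM over PVAT-CM. With total counts STC2 and CBS no longer had opposite signs. Whether both intervals of the other genes stayed away from 1 under that scaling was not checked, so fewer of them may meet the rule.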

How the results depend on the processing

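No paired analysis was possible because each medium had 1 library. The spread between cultures is unknown, and the depth limits ASNS, PPP1R15A and CTH most, which had the fewest counts of the 32 genes by their mean over the libraries. Values below name PPAT-CM over PVAT-CM first, then PPAT-CM over control-CM, then PVAT-CM over control-CM. The values as reported were 0 higher and 8 lower, 3 higher and 2 lower, and 9 higher and 0 lower among the 32 genes, and 1049 and 744, 1475 and 1068, and 386 and 428 among all genes kept. DESeq2 size factors, TMM without mitochondrial genes, a pseudocount of 5 and a call that also needs an interval away from 1 changed no call of the 32 genes. Total counts gave 1 higher and 5 lower, 8 and 0, and 14 and 0 among the 32 genes, with medians of -0.22, 0.35 and 0.52. Medians over all genes were then 0.13, 0.27 and 0.15, and calls among all genes were 2949 higher and 538 lower for PPAT-CM and 818 and 220 for PVAT-CM against control-CM. Upper quartile factors gave 0 and 11, 2 and 2, and 9 and 0. In the first comparison 34.4% of the 32 genes were then called lower, where 7.43% of all genes were. The median over all genes was then -0.036, and relative to it 8 of the 32 genes were lower. A mean count of at least 10 gave 1970 and 1579, 2310 and 2131, and 985 and 1325 calls among all genes, and one of at least 200 gave 555 and 361, 918 and 532, and 161 and 126. Without a filter these were 6777 and 5785, 7059 and 6625, and 5181 and 5957, and 4 of the 34 genes were lower in PPAT-CM than in control-CM, since FGF21 and ALDH1L2 entered. A 2-fold threshold left 1 of the 32 genes lower in PPAT-CM than PVAT-CM, 0 lower in PPAT-CM than in control-CM and 0 higher in PVAT-CM than in control-CM, and 300 and 180, 482 and 336, and 57 and 54 among all genes. Without the 16 genes that have overlaps or copies, a setting chosen after seeing the data, 4 of 16 were lower in the first comparison with a median of -0.49, 1 was higher and 0 lower in the second, and the median was 0.54 in the third. The genes left out included PYCR1, PSPH and VLDLR, whose intervals lay above 1 in the first comparison.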
